A study of Canis lupus familiaris with 15 samples.

Results

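The miRNAs described here are mir-106b, mir-93 and mir-25, which form one genomic cluster, together with mir-92b, a relative of mir-25 at another locus. They were taken by hairpin name from the small RNA tables of 15 canine spleens and make up 4 of the 313 hairpins listed, and all 4 were listed in every table. The groups were 5 spleens with hemangiosarcoma (HSA), 5 with nodular hyperplasia (NH) and 5 normal spleens (NS), each spleen being 1 library and 1 biological replicate. HSA is a malignant tumor of the cells that line blood vessels, and NH is a benign overgrowth of splenic tissue. HSA and NH samples were trimmed from masses of client-owned dogs at splenectomy, whereas NS samples came from an archive of frozen tissue, so the source of the tissue and the disease state cannot be told apart in comparisons with NS. All samples were flash frozen, and each was a piece of whole tissue that mixes cell types, so that a lower level can mean fewer cells of a type or less RNA per cell, which cannot be told apart. Age, sex and breed of the dogs were not used here.

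In mammals mir-106b, mir-93 and mir-25 are cut from a single primary transcript that lies within an intron of MCM7, a gene needed to license DNA replication, and the cluster is known for its activity in dividing cells. The RefSeq table of the dog, made on the assembly UU_Cfam_GSD_1.0, places MIR106B, MIR93 and MIR25 on chromosome 6, inside MCM7. The same table places MIR92B on chromosome 7, outside any other gene, with THBS3 as its nearest neighbour. mir-106b and mir-93 share their seed with mir-17 and mir-20a, and in human cells this family lowers the cell cycle inhibitor CDKN1A. mir-25 and mir-92b share another seed with mir-92a, mir-363, mir-32 and mir-367, and in human cells mir-25 lowers the pro-apoptotic protein BCL2L11 (BIM).

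The tables give raw read counts of each hairpin, divided into reads on its annotated mature sequence and reads elsewhere on the hairpin. The mature reads lay on the 5' arm for mir-106b and mir-93 and on the 3' arm for mir-25 and mir-92b. Both arms were therefore added. The other arm of each of these hairpins had 0 mature reads, as an arm without an annotated mature sequence would give. Any products of that arm would then be among the reads elsewhere on the hairpin. Summed over the 15 libraries the mature reads came to 40116 for mir-106b, 115785 for mir-93, 232673 for mir-25 and 2561 for mir-92b. Reads elsewhere on the hairpin came to 65973 for mir-106b, so that they outnumbered its mature reads, against 4564 for mir-93, 2633 for mir-25 and 116 for mir-92b. The tables do not give the position of these reads on the hairpin. Levels are CPM, the mature count per 1e6 reads of a library whose size was scaled by the trimmed mean of M-values (TMM).

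Mature reads per library came to 3040736 to 6562849 in HSA, 3768867 to 6073162 in NH and 4374133 to 7548062 in NS. All 7 endothelial marker miRNAs and all 6 lymphoid ones had reads in every library. Over all 250 miRNAs tested by edgeR, 22.4% were called in HSA against NS (34 higher and 22 lower), 18.4% in HSA against NH (26 higher and 20 lower) and 12.4% in NH against NS (14 higher and 17 lower), and the counts of markers called stand beside these shares. The endothelial list summed to 13631 to 33434 CPM in HSA, 10270 to 15393 CPM in NH and 10569 to 11871 CPM in NS, and 4 of its 7 members rose in HSA against NS and 3 against NH. The lymphoid list summed to 7154 to 17642 CPM in HSA, 20666 to 38196 CPM in NH and 19737 to 28994 CPM in NS, and 6 of its 6 members fell in HSA against NS and 4 against NH. HSA replicate 3 stood apart in the list of 4 pancreas miRNAs, at 3518 CPM, whereas the other 4 HSA libraries had at most 6.05 CPM, NH at most 16.0 CPM and NS at most 6.60 CPM. Of its 4 members 2 rose in HSA against NS and 1 against NH. In 3 of those other HSA libraries 3 of the 4 pancreas markers were at 0, and in the remaining one 2. Of the remaining lists, 1 of 4 stromal and smooth muscle, 1 of 6 striated muscle and 1 of 7 epithelial miRNAs fell in HSA against NS, 2 of 7 epithelial miRNAs fell against NH, and 1 of 5 neural miRNAs rose against each, while the single myeloid and liver markers were not called. In NH against NS, 2 of 4 stromal and smooth muscle, 4 of 6 striated muscle and 2 of 6 lymphoid miRNAs fell, and 1 of 6 striated muscle and 1 of 7 epithelial miRNAs rose. The stromal and smooth muscle list, led by mir-143, summed to 83931 to 512972 CPM in HSA, 69466 to 213358 CPM in NH and 348048 to 1053984 CPM in NS, so that NH lay wholly below NS, and NH also lay wholly below NS in the striated muscle list (699 to 2767 CPM in NH and 5088 to 14575 CPM in NS). A sum above 1e6 CPM can arise because the library sizes were scaled by TMM. The part of these cell types in the results below was not tested, and values without HSA replicate 3 are given where a result of the 4 miRNAs or their relatives was called.

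mir-92b was higher in HSA than in both other groups. Its mature reads were 301, 47, 59, 936 and 776 in HSA replicates 1 to 5, 26, 61, 56, 14 and 51 in NH replicates 1 to 5, and 28, 42, 71, 48 and 45 in NS replicates 1 to 5. In CPM these were 60.5, 6.94, 14.4, 195 and 135 in HSA, 4.63, 8.88, 11.3, 4.35 and 6.67 in NH, and 9.24, 9.56, 9.76, 10.7 and 9.76 in NS. HSA replicates 1, 3, 4 and 5 thus lay above every NH and NS library, and replicate 2 lay below all 5 NS libraries and within the range of NH. The groups therefore overlapped in both comparisons, and the spread in HSA (82.4 ± 81.1 CPM, SD, n = 5) was far wider than in NH (7.16 ± 2.94 CPM, n = 5) or NS (9.81 ± 0.552 CPM, n = 5).

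The edgeR quasi-likelihood test of mature reads called mir-92b higher in HSA than in NS by 3.07 on the log2 scale (SE 0.69, Benjamini-Hochberg adjusted p = 0.00595), an 8.38-fold difference. Against NH the log2 fold change was 3.52 (SE 0.70, edgeR adjusted p = 0.00279), an 11.4-fold difference. Among all 250 miRNAs tested, 22.4% were called in HSA against NS and 18.4% in HSA against NH, and mir-92b ranked 15th and 10th by p. In NH against NS, where 12.4% of miRNAs were called, mir-92b was not called, at a log2 difference of -0.45 (SE 0.65, edgeR adjusted p = 0.640). The order of the group means was HSA, NS and NH, and NH and NS did not differ beyond their spread. Both calls held with each library left out in turn, and without HSA replicate 3 the log2 fold changes were 3.53 against NS and 3.97 against NH. Exact permutation of log2(CPM + 1) called 0 of the 250 miRNAs after adjustment, mir-92b included (adjusted p = 0.213 in HSA against NS and 0.165 in HSA against NH). Before adjustment 73 miRNAs had an exact p under 0.05 in HSA against NS and 55 in HSA against NH. mir-92b was not among the 73 (unadjusted exact p = 0.0714) but was among the 55 (unadjusted exact p = 0.0238). limma voom gave 2.13 on the log2 scale (adjusted p = 0.0711) against NS. The comparisons of HSA with NS and with NH share the 5 HSA libraries.

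**Figure D1:**
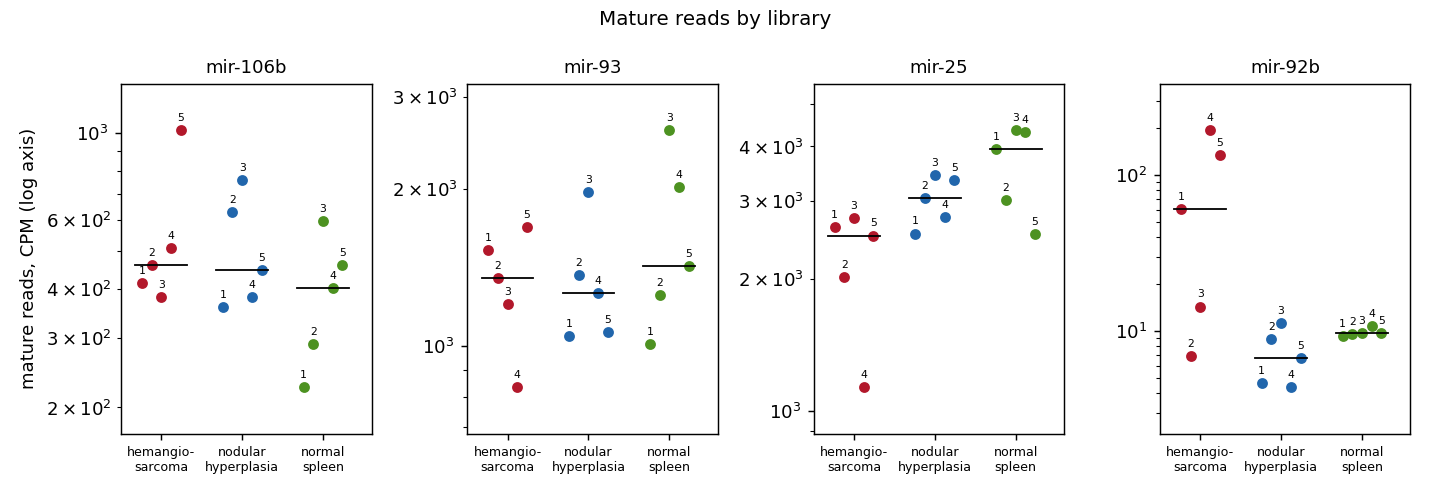
Mature reads of each miRNA in CPM (y axis, log scale, with its own range in each panel) by library; points are libraries, numbers are replicates and lines are group medians. mir-92b spans 6.94 to 195 CPM in HSA and 4.35 to 11.3 CPM over NH and NS, and in the panels of mir-106b and mir-93 the 3 groups overlap.

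Since mir-92b resembles mir-92a and mir-25, reads that also matched another hairpin were looked at apart. In HSA these shared reads numbered 4 to 10 per library, in NH 6 to 21 and in NS 3 to 14, so they were similarly few in all groups. They took a small part of the mir-92b reads in HSA, where 89.4% to 99.3% matched its hairpin alone, and a larger part in NH (57.1% to 78.6% matched its hairpin alone) and NS (72.9% to 92.9%). Both counts that follow were added after the data were seen. Counted by reads of its own hairpin alone, mir-92b was higher in HSA by 3.34 on the log2 scale against NS (edgeR adjusted p = 0.00549) and by 3.99 against NH (adjusted p = 0.00143). Reads of exactly the annotated mature sequence gave 3.89 against NS (adjusted p = 0.00833) and 4.90 against NH (adjusted p = 0.00211). These exact reads numbered 82, 10, 6, 245 and 192 in HSA replicates 1 to 5, 3, 5, 10, 0 and 2 in NH, and 8, 10, 10, 3 and 3 in NS. The counts of HSA replicates 2 and 3 thus lay within the ranges of NH and NS. With so few exact reads there, the size of these folds is poorly set.

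Reads elsewhere on the mir-92b hairpin differed in the same way. They numbered 24, 3, 19, 39 and 21 in HSA, 3, 1, 0, 1 and 1 in NH, and 1, 0, 1, 1 and 1 in NS, where a count of 0 allows up to 3 reads. Only HSA replicate 2 met the range of NH, and all 5 HSA libraries lay above NS. Replicate 2 did so by 3 reads against at most 1, which counting error cannot tell apart. Hairpins with at least 10 such reads over the 15 libraries were tested, and mir-92b had 116, most of them in HSA. By edgeR the log2 fold change was 4.47 in HSA against NS (SE 0.82, adjusted p = 0.00138) and 4.17 against NH (SE 0.78, adjusted p = 0.00233), and 0.30 in NH against NS (SE 0.93, adjusted p = 0.884). Of the 237 hairpins tested on these reads, 16.5% were called in HSA against NS, 13.9% in HSA against NH and 6.75% in NH against NS. Without HSA replicate 3 the first pair of log2 fold changes was 4.62 and 4.32, and both remained called with any library left out. With so few reads in NH and NS, the size of these folds is poorly set by counting alone.

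mir-25 was lower in HSA than in NS, but by a margin that depended on the samples and the scaling. HSA replicates 1 to 5 had 2625, 2021, 2744, 1130 and 2507 CPM, NH replicates 2534, 3049, 3447, 2759 and 3358 CPM, and NS replicates 3953, 3022, 4361, 4323 and 2527 CPM. HSA replicate 4 was the lowest library, and HSA and NS overlapped only through NS replicate 5, which lay among the HSA values. The log2 fold change of HSA against NS was -0.72 (SE 0.25, edgeR adjusted p = 0.0448), a 1.65-fold lower level. It ranked 56th of 250 miRNAs by p, the last one called in that comparison. HSA against NH gave -0.46 (SE 0.25, adjusted p = 0.193) and NH against NS -0.26 (SE 0.25, adjusted p = 0.481), both not called. The means, from lowest to highest, were 2205 ± 661 CPM in HSA, 3029 ± 388 CPM in NH and 3637 ± 822 CPM in NS (SD, n = 5 each), and neither neighbouring pair was called.

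The call for mir-25 was lost in 14 of the 15 fits that left out 1 library, and held only without HSA replicate 1 (edgeR adjusted p = 0.0478). Over these 15 fits the log2 fold change stayed between -0.79 and -0.56, and the highest adjusted p was 0.113. Without HSA replicate 3 the value was -0.66 (edgeR adjusted p = 0.0740). Scaling by library totals gave -0.18 (adjusted p = 0.745) and unscaled counts -0.61 (adjusted p = 0.332). These scalings also moved the median over all miRNAs of the log2 fold changes in HSA against NS, which was 0.03 with TMM, 0.63 with library totals and 0.20 with unscaled counts. Relative to that median mir-25 stood at -0.75, -0.82 and -0.81 under the 3 scalings, and mir-92b at 3.04, 3.24 and 2.97. The calls themselves were divided into 34 higher and 22 lower with TMM, 46 higher and 1 lower with library totals, and 23 higher and 1 lower with unscaled counts. In NH against NS the median was 0.23 with TMM, 0.81 with library totals and 0.44 with unscaled counts, and the calls were 14 higher and 17 lower, 45 and 6, and 11 and 5.

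Of the reads elsewhere on the mir-25 hairpin there were 73 to 178 per library in HSA, 111 to 311 in NH and 115 to 308 in NS, or 0.840% to 1.48%, 1.07% to 1.36% and 0.951% to 1.16% of its hairpin reads. They were not called in HSA against NS (log2 fold change -0.48, SE 0.25, edgeR adjusted p = 0.220), HSA against NH (-0.45, adjusted p = 0.210) or NH against NS (-0.03, adjusted p = 0.974). Of the mature reads of mir-25 at least 99.9% matched its hairpin alone in every library. The erythroid list, of which mir-451 and mir-144 were measured, summed to 15549 to 53992 CPM in HSA, 22474 to 88112 CPM in NH and 44614 to 151082 CPM in NS, and mir-451 fell in HSA against NS. Its part in the mir-25 values was not tested.

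mir-93 showed no called difference in its mature reads. HSA replicates 1 to 5 had 1527, 1353, 1207, 834 and 1693 CPM, NH replicates 1047, 1369, 1971, 1267 and 1065 CPM, and NS replicates 1011, 1252, 2595, 2020 and 1425 CPM. The 3 groups overlapped throughout, with the lowest value in HSA replicate 4 and the highest in NS replicate 3. The log2 fold changes were -0.33 in HSA against NS (SE 0.29, edgeR adjusted p = 0.475), -0.02 in HSA against NH (SE 0.29, adjusted p = 0.957) and -0.31 in NH against NS (SE 0.29, adjusted p = 0.479). The first and the last had the other sign when scaled by library totals, at 0.17 and 0.28, with the shift of the median given above. The reads elsewhere on its hairpin were 3.49% to 4.24% of hairpin reads in HSA, 3.30% to 4.49% in NH and 3.61% to 4.58% in NS.

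The mature reads of mir-106b were not called in any comparison either. HSA replicates 1 to 5 had 416, 462, 383, 511 and 1019 CPM, NH replicates 361, 631, 760, 383 and 449 CPM, and NS replicates 225, 290, 599, 403 and 461 CPM. The means were 558 ± 262 CPM in HSA, 517 ± 172 CPM in NH and 395 ± 147 CPM in NS (SD, n = 5 each), and the groups overlapped. The log2 fold changes were 0.50 in HSA against NS (SE 0.34, edgeR adjusted p = 0.337), 0.11 in HSA against NH (SE 0.34, adjusted p = 0.828) and 0.39 in NH against NS (SE 0.34, adjusted p = 0.458).

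Reads elsewhere on the mir-106b hairpin may include products of its 3' arm. Such reads elsewhere were lower in HSA than in NS, whereas the mature reads of mir-106b were not called. They numbered 3124, 3007, 3812, 1491 and 3176 in HSA, 3925, 5469, 4270, 2815 and 6398 in NH, and 4736, 5203, 9079, 5787 and 3681 in NS. Scaled to the same library sizes as the mature reads, they came to 628, 444, 928, 311 and 553 CPM in HSA, 698, 796, 860, 874 and 837 CPM in NH, and 1562, 1184, 1248, 1292 and 798 CPM in NS. Only HSA replicate 3 lay above the lowest NS library, replicate 5. By edgeR the log2 fold change of HSA against NS was -1.09 (SE 0.27, adjusted p = 0.0105), and it was called with any library left out. HSA against NH gave -0.51 (SE 0.27, adjusted p = 0.186) and NH against NS -0.58 (SE 0.27, adjusted p = 0.168), both not called. The call in HSA against NS was lost with library totals (-0.54, adjusted p = 0.201) and with unscaled counts (-0.96, adjusted p = 0.0947), and without HSA replicate 3 the value was -1.18 (adjusted p = 0.00296).

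As a share of its own hairpin reads, which does not depend on the scaling, the part elsewhere on the mir-106b hairpin was 60.2%, 49.0%, 70.8%, 37.8% and 35.2% in HSA replicates 1 to 5. It was 65.9%, 55.8%, 53.1%, 69.5% and 65.1% in NH replicates 1 to 5 and 87.4%, 80.3%, 67.6%, 76.2% and 63.4% in NS replicates 1 to 5. Reads elsewhere outnumbered the mature reads in all 5 NH and all 5 NS libraries but in only 2 of 5 HSA libraries, replicates 1 and 3. HSA replicate 3 lay above NS replicates 3 and 5, so the groups overlapped. The log2 odds of a read lying outside the mature sequence differed by -1.63 between HSA and NS (SE 0.43, limma adjusted p = 0.0345), by -0.67 between HSA and NH (SE 0.43, limma adjusted p = 0.811) and by -0.96 between NH and NS (SE 0.43, limma adjusted p = 0.299).

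Of the 170 hairpins tested for these odds, 8.82% were called in HSA against NS, 0% in HSA against NH and 4.12% in NH against NS. For HSA against NH limma gave 10 hairpins at an unadjusted p under 0.05, and the exact permutation test also gave 10. After adjustment the exact permutation test called 0 of the 170 hairpins in each of the 3 comparisons, with 36 at an unadjusted p under 0.05 in HSA against NS and 39 in NH against NS, so that a call lost by it says nothing about a single hairpin. The call for mir-106b in HSA against NS was among those lost by exact permutation (adjusted p = 0.225). It was also lost when hairpins with a mean of at least 10 reads were admitted (limma adjusted p = 0.0584), and without HSA replicate 2, 4 or 5 or NS replicate 1, 2 or 4 (limma adjusted p of 0.0544 to 0.108). Without HSA replicate 3 it was -1.94 (limma adjusted p = 0.0154). With the reads of all hairpins pooled, those outside the mature sequence took 7.86% to 22.8% of hairpin reads in HSA, 5.37% to 10.4% in NH and 4.83% to 8.57% in NS, the opposite direction to mir-106b. Abundant hairpins weigh most in this pooled share. Taken hairpin by hairpin, the median difference in log2 odds in HSA against NS was -0.05 over the 170, with 7 called higher and 8 lower. With all hairpin reads counted together, mir-106b had a log2 fold change of -0.39 in HSA against NS (edgeR adjusted p = 0.215), of the other sign than its mature reads.

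**Figure D2:**
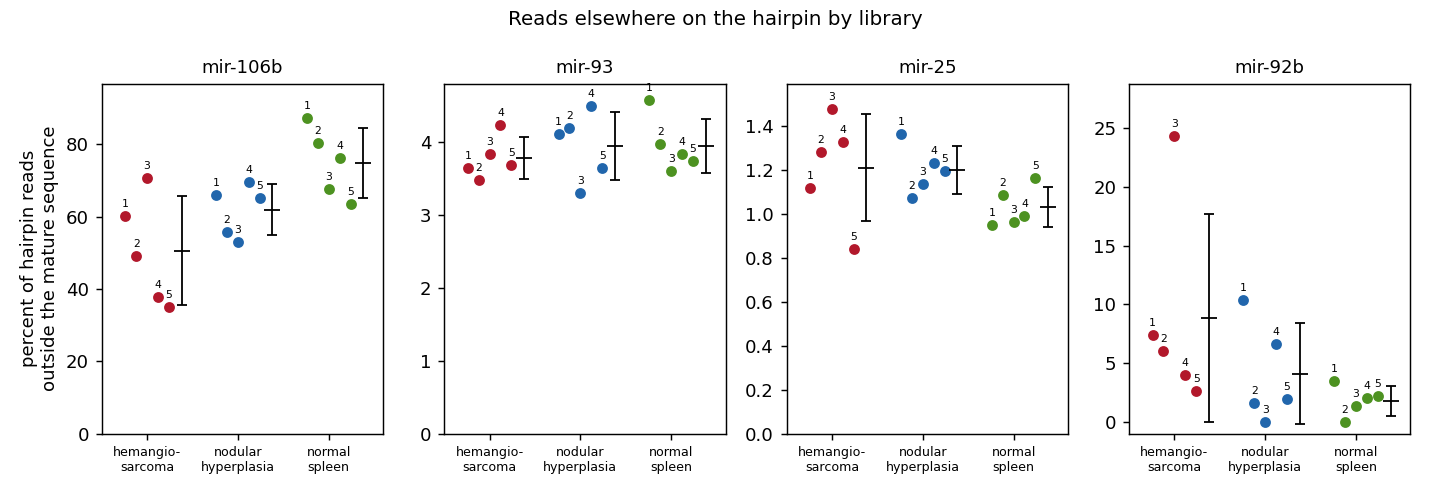
Share of each hairpin's reads that lay outside the mature sequence, in percent (y axis, with its own range in each panel), by library; points are libraries, numbers are replicates, and bars are the mean ± SD of 5 libraries. For mir-106b the shares run from 35.2% to 70.8% in HSA, 53.1% to 69.5% in NH and 63.4% to 87.4% in NS, and for mir-93 they stay between 3.30% and 4.58%.

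The odds of mir-93 and mir-25 were not called. In HSA against NS they differed by -0.06 for mir-93 (limma adjusted p = 0.862) and 0.21 for mir-25 (adjusted p = 0.520). mir-92b reached the minimum of 100 hairpin reads on average only through HSA, and with 0 to 3 reads elsewhere in NH and NS its odds turned sign with the pseudocount, so its difference is not read here.

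Ratios of mature counts within a library do not depend on the scaling either. A ratio between miRNAs was compared only across libraries, since capture can differ between sequences. In all, 12 exact permutation tests over 252 orderings were run, 4 ratios in 3 comparisons, two-sided and with a smallest possible p of 0.00794, and 7 of them had an exact p under 0.05 but none passed after adjustment over the 12. The log2 ratio of mir-106b over mir-93 averaged -1.30 ± 0.55 in HSA, -1.40 ± 0.24 in NH and -2.07 ± 0.26 in NS (SD, n = 5 each). It was thus higher by 0.77 in HSA than in NS (exact p = 0.0238, adjusted p = 0.0714) and by 0.67 in NH than in NS (exact p = 0.0159, adjusted p = 0.0635). Both masses overlapped with NS only at NS replicate 5, and the direction turned when all hairpin reads were counted (-0.25 and -0.02). Without NS replicate 1, 2, 3 or 4 the exact p of HSA against NS was 0.0556.

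The log2 ratio of mir-25 over mir-93 averaged 0.71 ± 0.29 in HSA, 1.20 ± 0.31 in NH and 1.18 ± 0.49 in NS (SD, n = 5 each). HSA was lower by 0.49 on the log2 scale than NH (exact p = 0.0476, adjusted p = 0.0816), and by 0.47 than NS (exact p = 0.0873, adjusted p = 0.116). The exact p against NH was 0.0635 to 0.0794 without any 1 library other than HSA replicate 3 or NH replicate 3. Against NS it was 0.0397 without HSA replicate 3 and 0.0476 without NS replicate 3. NH and NS differed by 0.02 (exact p = 0.889).

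mir-92b was also set against mir-25 and mir-92a of its own seed group. No ratio over mir-363 of that group was computed. Like mir-92b, mir-363 was highest in HSA replicates 4 and 5. It had 141, 254, 156, 1960 and 895 CPM in HSA replicates 1 to 5, 235 to 644 CPM in NH and 213 to 377 CPM in NS. The log2 ratio of mir-92b over mir-25 was -5.44, -8.17, -7.56, -2.53 and -4.21 in HSA replicates 1 to 5, -9.26 to -8.24 in NH and -8.79 to -8.00 in NS. All 5 HSA libraries lay above all 5 NH libraries, and HSA replicate 2 alone fell within the range of NS. In that library mir-92b itself lay within the range of NH in CPM, while mir-25 lay below all NH libraries. The difference was 3.21 against NH (exact p = 0.00794, adjusted p = 0.0635) and 2.90 against NS (exact p = 0.0159, adjusted p = 0.0635), and the p against NS was 0.0556 to 0.0635 without any 1 NS library. The mir-92a counts join the copies of the mir-17 and mir-106a clusters, mir-92a-1 and mir-92a-2, since nearly all their mature reads match both. Over mir-92a the difference was 2.80 against NH (exact p = 0.0317, adjusted p = 0.0762) and 2.55 against NS (exact p = 0.0476, adjusted p = 0.0816). HSA replicate 2 stood at -9.36 in this ratio, within the range of NH (-9.69 to -9.14) and just below all NS libraries (-9.35 to -9.01). Without NH replicate 1 or 5 the p against NH was 0.0714, and without any 1 NS library the p against NS was 0.0873. In NH against NS the ratio over mir-92a differed by -0.25 (exact p = 0.0794), and by -0.32 without NH replicate 3 (exact p = 0.0317).

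**Figure D3:**
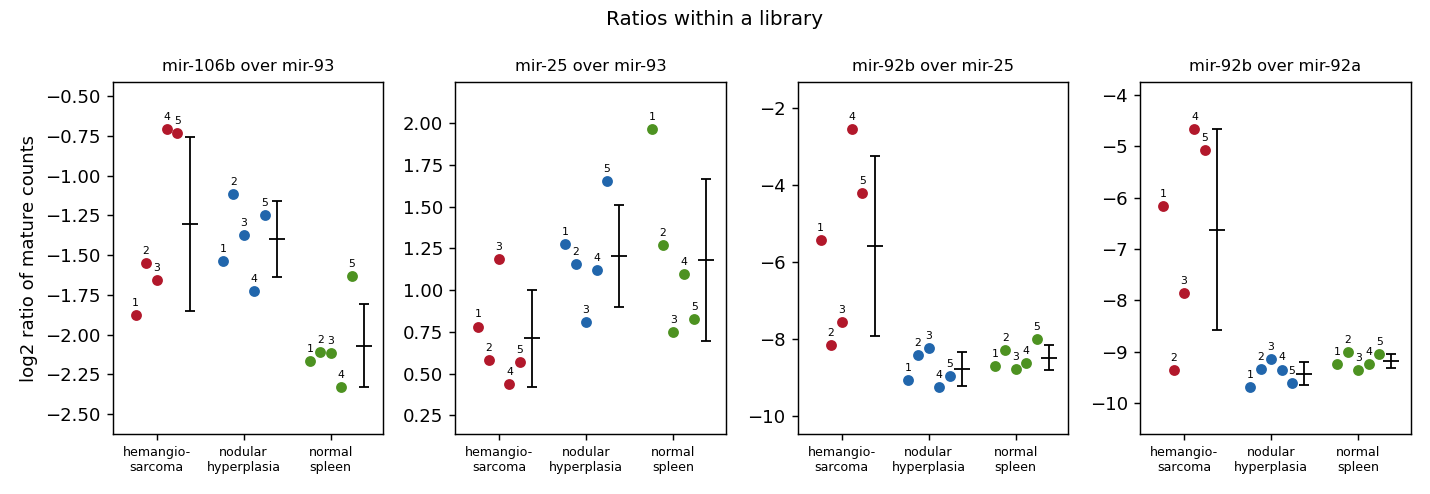
Log2 ratios of mature counts within a library (y axis, with its own range in each panel); points are libraries, numbers are replicates, and bars are the mean ± SD of 5 libraries. For mir-92b over mir-25 the HSA libraries run from -8.17 to -2.53 and the NH libraries from -9.26 to -8.24.

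Relations among the cluster members over the 15 libraries did not pass a test after adjustment. On log2(CPM + 1), mir-106b and mir-93 had Pearson's r = 0.494 (permutation p = 0.0604, adjusted p = 0.121) and Spearman's rho = 0.539 (permutation p = 0.0404, adjusted p = 0.136). mir-93 and mir-25 had r = 0.586 (permutation p = 0.0225, adjusted p = 0.0901) and rho = 0.343 (permutation p = 0.210, adjusted p = 0.280). mir-106b and mir-25 had r = -0.140 (permutation p = 0.607, adjusted p = 0.607) and rho = -0.150 (permutation p = 0.594, adjusted p = 0.594). The mature reads of mir-106b against the reads elsewhere on its hairpin gave r = -0.431 (permutation p = 0.109, adjusted p = 0.145) and rho = -0.489 (permutation p = 0.0679, adjusted p = 0.136). In all, 4 relations were computed. With the 2 libraries farthest from the median of the first miRNA left out, r became 0.411, 0.159, 0.0840 and -0.148, so the relation of mir-93 with mir-25 rests on those libraries. Groups of 5 are too small for a correlation within a group, and all points share the library scaling.

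The miRNAs with the most similar pattern were found by Pearson's r of log2(CPM + 1) over the 15 libraries among 172 miRNAs of at least 10 CPM on average, as a description. For mir-106b these were mir-374a (r = 0.886), mir-18a (0.754) and mir-15a (0.753). For mir-93 they were mir-32 (0.903), a relative of mir-25 by its seed, mir-15b (0.828) and the erythroid mir-144 (0.783). For mir-25 they were mir-140 (0.757), mir-30e (0.752) and mir-26b (0.720). For mir-92b they were mir-132 (0.877), mir-365 (0.817) and mir-224 (0.817). No member of the cluster was among the 3 closest to another.

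The relatives by seed or cluster, 11 of them measured, were mostly not called. In HSA against NS 1 rose, mir-20b, and 10 were not called, where 22.4% of all miRNAs were called, with a median log2 fold change of 0.10 beside 0.03 over all miRNAs. In HSA against NH 1 fell, mir-19b, where 18.4% of all were called, with a median of -0.13 beside -0.07, and in NH against NS none of the 11 was called by edgeR (0 at an unadjusted p under 0.05), where 12.4% of all were called, with a median of 0.52 beside 0.23. mir-20b, of the mir-106a cluster and with the seed of mir-106b and mir-93, had 19.5, 22.4, 19.5, 178 and 114 CPM in HSA, 76.0, 56.9, 40.1, 19.2 and 34.3 CPM in NH, and 9.24, 15.9, 20.8, 22.1 and 26.5 CPM in NS. Its log2 fold change in HSA against NS was 1.90 (SE 0.62, edgeR adjusted p = 0.0362), and HSA replicates 4 and 5 stood above all other libraries while replicates 1 to 3 lay among NS. Without HSA replicate 3 the value was 2.34 (edgeR adjusted p = 0.0155). The call was lost without HSA replicate 4 or 5 or NS replicate 1, 2, 3 or 4. Those fits gave 1.21 to 1.96 (edgeR adjusted p of 0.0675 to 0.159). By an unadjusted edgeR p under 0.05, 4 of the 11 relatives, mir-20b among them, were higher in HSA than in NS. The others were mir-18b (log2 fold change 2.05, edgeR adjusted p = 0.0717), mir-106a (1.51, adjusted p = 0.0760) and mir-363 (1.32, adjusted p = 0.131). Each was highest in HSA replicates 4 and 5, at 54.4 and 28.6, 296 and 157, and 1960 and 895 CPM. In HSA against NH only mir-19b had an unadjusted edgeR p under 0.05.

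The counts of mir-19b join its copies in the mir-17 and mir-106a clusters, mir-19b-1 and mir-19b-2, since their mature reads match both. mir-19b had 607, 718, 557, 487 and 823 CPM in HSA and 1024, 1351, 1059, 682 and 1109 CPM in NH. The log2 difference came to -0.71 (SE 0.24, edgeR adjusted p = 0.0490), and only NH replicate 4 lay within the range of HSA. The call was lost in 13 of the 15 fits that left out 1 library, and held only without HSA replicate 2 or NH replicate 4. Without HSA replicate 3 it stood at -0.51 (edgeR adjusted p = 0.130), the smallest of these differences. mir-92a, the closest relative of mir-92b by name and seed, was not called, with 4362 ± 604 CPM in HSA, 4873 ± 1429 CPM in NH and 5772 ± 687 CPM in NS (SD, n = 5 each). Its log2 fold changes were -0.40 in HSA against NS (SE 0.22, edgeR adjusted p = 0.224) and -0.16 in HSA against NH (SE 0.22, adjusted p = 0.616). The mature reads counted for mir-17 came to 3765 on the 3' arm and 0 on the 5' arm. Those of mir-20a, mir-106b and mir-93 all lay on the 5' arm. That these 3' reads carry the seed of mir-106b and mir-93 was not tested. mir-17 therefore stands here as a relative by cluster. In every library mir-17 had most of its reads elsewhere on its hairpin. The shares were 92.4% to 95.0% in HSA, 91.0% to 95.0% in NH and 90.5% to 94.8% in NS. Its odds were not called in HSA against NS (difference 0.09, limma adjusted p = 0.888). None of the 10 relatives tested for these odds was called by limma in any comparison, and 2 in HSA against NS, 2 in HSA against NH and 0 in NH against NS had an unadjusted p under 0.05.

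**Figure D4:**
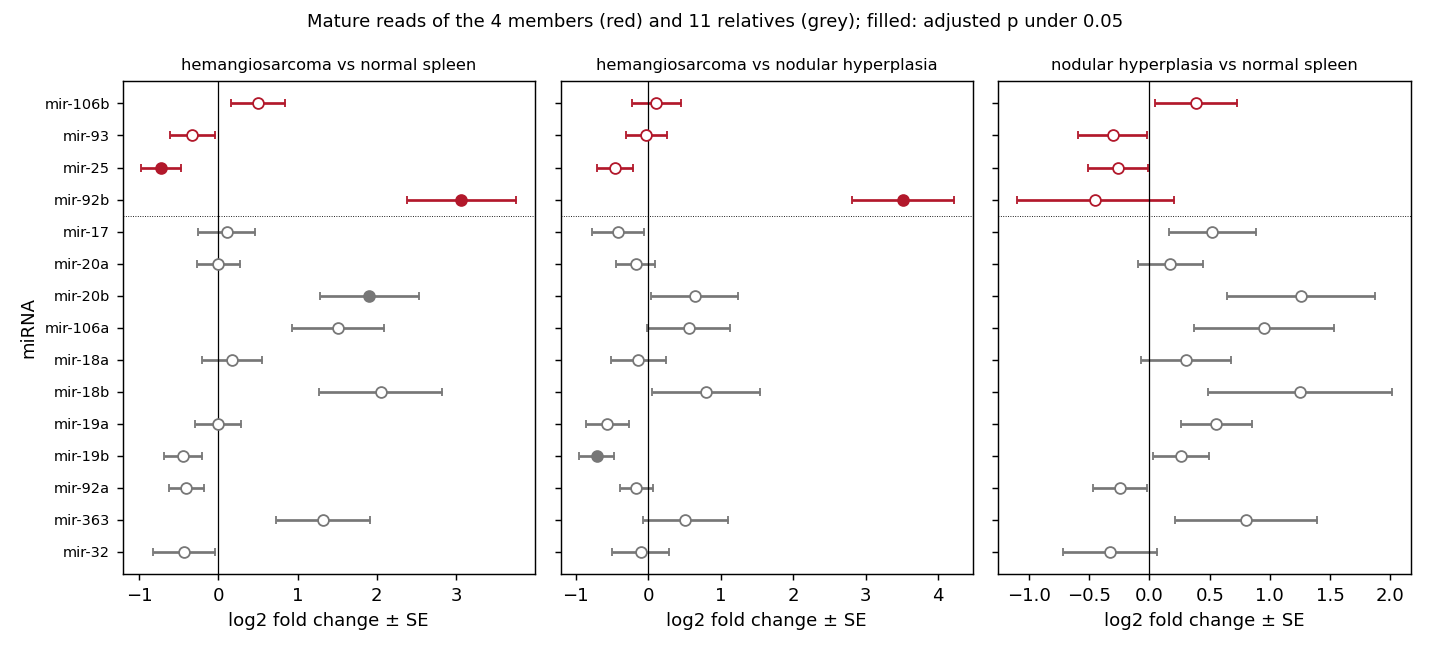
Log2 fold changes of mature reads ± SE (x axis, with its own range in each panel) in the 3 comparisons, for mir-106b, mir-93, mir-25 and mir-92b in red above the dotted line and 11 relatives in grey below it; filled points have an edgeR adjusted p under 0.05. mir-92b stands at 3.07 and 3.52 in the HSA comparisons, and in NH against NS no point is filled.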

How the data were processed

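The authors checked reads with FastQC, trimmed adapters, removed reads of low quality or under 15 nucleotides and counted the rest in CLCbio against canine hairpins of miRBase release 20. The build in the submitters' processing notes is canFam3, and for FastQC and CLCbio the version is not given in the sources used here. What the authors deposited for each hairpin are raw, unnormalized counts. Their expression value is the mature 5' count alone, and so is 0 for mir-25 and mir-92b.

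Mature counts from both arms were summed and hairpin copies merged by name, giving 277 miRNAs. Those with 10 or more counts over 15 libraries, 250 in all, were tested with edgeR 4.0.16 (R 4.3.3), quasi-likelihood, TMM, 3 groups in 1 fit, with Benjamini-Hochberg adjustment in each comparison and a threshold of 0.05. The SE was obtained by dividing the absolute log2 fold change by the root of F. Log2 odds, with a pseudocount of 0.5, were tested with limma 3.58.1 for 170 hairpins with a mean of at least 100 reads. Reads elsewhere on the hairpin were tested with edgeR at the library sizes of the mature reads, a test added after the data were seen. Ratios used a pseudocount of 0.5 and an exact permutation written with numpy 2.4.6, and correlations used 100000 permutations. Their p-values were adjusted with scipy 1.17.1. The scripts were tested on simulated data.

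The miRNAs, the lists and the tests were chosen with earlier results of these data known. Named are the 4 miRNAs, their relatives by seed or cluster and, for each, the 3 miRNAs of closest pattern. The lists of 7 endothelial, 6 lymphoid and 4 pancreas markers, and of erythroid ones, of which 2 were measured, are given with the report, as are the other lists: myeloid, stromal and smooth muscle, striated muscle, epithelial, liver and neural. Alternatives were other scalings, filters and tools (DESeq2 1.42.0, limma voom), other read classes and leaving out each library. Among the 30 pairs of libraries within a group, none was a copy of the other, and pairs between groups were not compared. P-values measure the spread between dogs. No sequences are printed.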

Additional observations from a re-analysis of the deposited data

Results flagged for a closer look

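Of 36 groups of 5 libraries examined for a value far from the rest (gap over range above 0.71), 2 held one, near the 1 in 20 that chance gives. mir-106b in HSA replicate 5 stood at 1019 CPM, whereas the other 4 HSA libraries had 383 to 511 CPM. For mir-92b in HSA replicate 3, 24.4% of hairpin reads lay outside the mature sequence, whereas the other 4 HSA libraries had 2.63% to 7.38%. The share in HSA replicate 3 rests on 19 of 78 reads.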

How the results depend on the processing

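Each value was recomputed under the alternatives. Of the main results, mir-92b higher in HSA kept its direction under all of them, and its call except by exact permutation (2.08 against NS and 2.56 against NH) and limma voom against NS (2.13). mir-25 in HSA against NS kept its direction but lost its call with library totals (-0.18), unscaled counts (-0.61), TMM without the 3 most abundant miRNAs (-0.65), only the groups compared (-0.65), all hairpin reads (-0.60), exact mature reads (-0.49, added after the data were seen) and exact permutation (-0.76). Differences not called in mature reads turned sign as follows. With library totals mir-93 stood at 0.17 in HSA against NS, and in NH against NS mir-93 stood at 0.28, mir-25 at 0.41 and mir-92b at 0.26. With all hairpin reads mir-106b stood at -0.39, -0.15 and -0.24 in HSA against NS, HSA against NH and NH against NS. mir-93 in HSA against NH stood at 0.065 with TMM without the 3 most abundant miRNAs, 0.064 with only the groups compared, 0.058 with all hairpin reads, 0.10 with the deposited expression value alone and 0.28 with exact mature reads, which also gave 0.14 in HSA against NS.

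For the odds of reads off the mature sequence, mir-106b in HSA against NS lost its call at -1.63 by exact permutation and with hairpins of a mean of at least 10 reads. After adjustment exact permutation called 0 of 170 hairpins here, and 0 of 250 miRNAs for mature reads, in every comparison. A pseudocount of 5 turned the odds of mir-92b, which were tested only because of its reads in HSA, to -0.26 against NS and -0.59 against NH and those of mir-25 against NH to 0.0082. For reads elsewhere on the hairpin, mir-106b in HSA against NS lost its call with library totals (-0.54) and unscaled counts (-0.96). Library totals turned mir-93 and mir-25 in HSA against NS to 0.15 and 0.018, and mir-106b, mir-93 and mir-25 in NH against NS to 0.11, 0.29 and 0.61, and unscaled counts turned mir-25 in NH against NS to 0.21. With all hairpin reads the ratio of mir-106b over mir-93 turned to -0.25, -0.24 and -0.015 in HSA against NS, HSA against NH and NH against NS.

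The number of miRNAs called in HSA against NS was 56, but 24 with unscaled counts and 35 with the deposited expression value alone. In HSA against NH it was 46, but 22 with library totals, 22 with only the groups compared and 29 with the replicate block. In NH against NS it was 31, but 51 with library totals, 16 with unscaled counts, 57 with DESeq2, 56 with only the groups compared and 15 with the deposited expression value alone. With the replicate block mir-25 in HSA against NS stood at -0.75 (edgeR adjusted p = 0.0703) and mir-93 in HSA against NH at 0.033, and no other call of the 4 miRNAs in mature reads or odds changed. The replicate numbers do not pair the samples: deviations of samples with the same number correlated at -0.325 to 0.323, and 2 of 15 libraries correlated best with their own number.

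With each library left out in turn, the number called was 36 to 61 in HSA against NS (36 without NS replicate 2 or 4), 26 to 60 in HSA against NH (29 without HSA replicate 1, 26 without NH replicate 2) and 4 to 46 in NH against NS (15 without NH replicate 2, 17 without NH replicate 5, 15 without NS replicate 1, 4 without NS replicate 2 and 19 without NS replicate 4). Mature reads of mir-25 in HSA against NS had a range of -0.79 to -0.56, and in HSA against NH mir-106b had -0.11 to 0.44 and mir-93 -0.10 to 0.28. Reads elsewhere on the hairpin had a range of -0.17 to 0.13 for mir-93 in HSA against NH, and in NH against NS of -0.10 to 0.031 for mir-25 and -0.30 to 0.58 for mir-92b. Odds had a range of -1.94 to -1.35 for mir-106b in HSA against NS, -0.087 to 0.12 for mir-25 in HSA against NH and -0.056 to 0.060 for mir-93 in NH against NS. The ratio of mir-106b over mir-93 had 0.62 to 0.91 in HSA against NS and -0.055 to 0.24 in HSA against NH. The ratio of mir-25 over mir-93 had -0.59 to -0.28 in HSA against NS, -0.61 to -0.38 in HSA against NH and -0.092 to 0.22 in NH against NS. The ratio of mir-92b over mir-25 had 2.14 to 3.55 in HSA against NS. The ratio of mir-92b over mir-92a had 2.07 to 3.24 in HSA against NS, 2.32 to 3.49 in HSA against NH and -0.32 to -0.18 in NH against NS. The deposited expression value gave no value for mir-25 and mir-92b, which are at 0 in it. The cause of these changes was not tested. At 14 to 71 mature reads of mir-92b per library in NH and NS, counting error limits its values there.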
